A study of Homo sapiens with 4 samples.

Results

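The 9 genes described here are HLA-B, HLA-C, HLA-E, B2M, TAP1, TAP2, TAPBP, CD74 and RFXANK, and each had at least 1 detected probe among the 8830 genes measured. They were chosen from a reading of the same arrays, by name and with the decoy against scrambled RNA results known, so their differences are given as a description and carry no test. MDA-LM2 cells, a subline of human breast cancer cells selected for metastasis to the lung, were transfected by lipofection with capped and polyadenylated RNA that was either the sRSE decoy or a scrambled control. Total RNA was taken after 48 h from 2 samples of each kind, labelled with biotin and read on an Illumina expression beadchip with 47323 probes. All samples thus carried transfected RNA, and no untransfected sample was used here. Nothing in the labels says that replicates came from separate cultures, so the p-values cover the spread among 2 arrays a group and that spread may be no more than technical.

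Class I molecules show peptides from the cell's own proteins to CD8 T cells. Proteasomes cut the proteins, TAP1 and TAP2 pump the peptides into the endoplasmic reticulum, TAPBP (tapasin) holds the empty class I molecule at that pump, and B2M is the light chain that every classical class I heavy chain needs. CD74, the invariant chain, guards the groove of class II molecules, which show peptides from the endocytic route. RFXANK is a subunit of the RFX complex, which binds the X box of class II promoters, CD74 and several class I genes, together with factors at the neighbouring X2 and Y boxes.

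RefSeq promoter windows were available for 8 of the 9 genes, in build GRCh38.p14. For HLA-E none was used. The 250 bases before the transcription start are printed for both classical class I heavy chains, for CD74 and for RFXANK, as examples of genes with a known place in the RFX route, as target or subunit. Capitals mark matches on either strand to AGCAAC (X1 box core), TGACG (X2 box), CCAAT (Y box), to an interferon-stimulated response element (GAAA, any 2 bases, GAAA) or to an NF-kB site (GGGGA, any base, TCCC), and matches that touch form 1 run of capitals.
HLA-B, chr6:31357180-31357429, reverse strand: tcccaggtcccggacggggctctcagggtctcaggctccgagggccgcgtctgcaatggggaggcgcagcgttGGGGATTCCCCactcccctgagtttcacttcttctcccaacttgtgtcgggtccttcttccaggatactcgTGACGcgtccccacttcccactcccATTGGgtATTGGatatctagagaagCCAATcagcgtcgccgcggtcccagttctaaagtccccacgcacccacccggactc
HLA-C, chr6:31272093-31272342, reverse strand: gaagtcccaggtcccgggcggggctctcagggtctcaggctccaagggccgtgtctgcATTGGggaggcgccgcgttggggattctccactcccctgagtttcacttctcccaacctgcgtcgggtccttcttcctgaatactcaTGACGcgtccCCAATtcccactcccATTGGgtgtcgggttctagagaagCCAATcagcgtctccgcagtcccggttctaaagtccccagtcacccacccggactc
CD74, chr5:150412911-150413160, reverse strand: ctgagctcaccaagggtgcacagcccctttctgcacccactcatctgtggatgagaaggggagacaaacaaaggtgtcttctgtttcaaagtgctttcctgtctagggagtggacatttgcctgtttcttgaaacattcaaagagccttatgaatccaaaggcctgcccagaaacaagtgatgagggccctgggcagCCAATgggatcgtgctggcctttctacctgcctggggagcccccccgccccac
RFXANK, chr19:19192008-19192257, forward strand: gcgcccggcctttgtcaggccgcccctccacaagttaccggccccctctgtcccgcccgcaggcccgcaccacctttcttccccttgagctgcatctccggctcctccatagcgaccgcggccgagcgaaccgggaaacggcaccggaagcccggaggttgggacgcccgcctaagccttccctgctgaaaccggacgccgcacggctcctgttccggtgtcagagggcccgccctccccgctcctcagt
The HLA-B and HLA-C windows share the layout of a TGACG match at 106 and 105 bases and a CCAAT match at 56 bases before the start. Only the HLA-B window among the 8 genes held the NF-kB letters. The CD74 window held 1 CCAAT match, and the RFXANK window shown held no match to these letters.

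Over the 8 genes, TGACG was found in 4 (B2M, HLA-B, HLA-C, TAP2), CCAAT in 5 (B2M, CD74, HLA-B, HLA-C, TAP1), the interferon-stimulated response element in 4 (B2M, TAP1, TAP2, TAPBP), and AGCAAC in 0. Of all 35116 RefSeq windows of this length, 21.2% held TGACG, 32.0% CCAAT, 3.02% the interferon-stimulated response element, 0.367% the NF-kB letters and 10.3% AGCAAC. These 5 patterns come from 11 that were searched, and their letters were picked with the members' matches in view, so the counts support nothing. The other 6 were TAGCAAC (0 genes, 2.41% of windows), AGNNACAG (CD74 and TAP1, 17.9%), TGANGC (HLA-B, HLA-C and TAP2, 37.1%), TGACGTCA (0 genes, 1.65%), ATTGG followed by any 5 bases and C (B2M, CD74, HLA-B and HLA-C, 9.25%) and GGGA, any 3 bases, CCC (CD74 and HLA-B, 6.73%). A match says only that the letters are there, and a window without one says nothing of the factor.

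The arrays differed in brightness before scaling. The 75th percentile of raw signal was 166.05 and 156.6 with scrambled RNA against 207.9 and 192.6 with the decoy, while 13402 to 13849 probes were detected per array. After normalization, limma called 6029 of 13889 detected probes at an adjusted p under 0.05, 49.4% of them higher with the decoy. That share was 62.3% when arrays were scaled to their medians and 64.2% when scaled to the 75th percentile of probes detected on all arrays. Genes often used as loading references were themselves among the higher signals, with 1 GAPDH probe at 6309.4 and 6112 with scrambled RNA against 12461.2 and 10729.4 with the decoy, a log2 difference of 0.85 ± 0.09. GAPDH and ACTB were looked at after the data were seen, and 2 of 3 ACTB probes and all 3 GAPDH probes were called higher.

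The cell line's own markers were present: 8 of the 10 listed genes were detected on all arrays, VIM and CD44 among them, while KRT18 and SPARC were detected on none. Of 18 markers of antigen presenting and other blood cells, 15 were detected on no array, PTPRC, MS4A1, CD3E, ITGAX and SPI1 among them. The others were CD14, CD68 and CSF1R. CD68 fell by 0.26 on the log2 scale by its brightest probe (limma adjusted p = 0.0412). Another CD68 probe detected on all arrays, ILMN_2359907, had a log2 difference of 0.08 ± 0.10 and was not called. Summed raw signal over that list was 6802 to 7250 with scrambled RNA and 6288 to 6788 with the decoy. None of the 5 fibroblast markers was detected, and of 4 endothelial markers only PECAM1 was, with a log2 difference of 0.78 ± 0.14. Fewer cells of a type and less RNA per cell cannot be told apart in such bulk samples.

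Among the class I heavy chains, HLA-E and HLA-C stood higher with the decoy and HLA-B differed little. HLA-E, a non-classical molecule that presents leader peptides to NK cell receptors, had raw signals of 1977.9 and 1652.6 with scrambled RNA and 3398.8 and 3260.5 with the decoy. Both decoy arrays lay above both scrambled arrays, and the difference of the normalized log2 signal was 0.76 ± 0.09 (SE, 2 arrays a group), which is 1.69-fold.

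HLA-C, a classical heavy chain that is also read by killer cell immunoglobulin-like receptors, gave a dim signal. Its detected probe read 153.6 and 160.9 with scrambled RNA and 292.1 and 271.6 with the decoy. The groups did not overlap, with a log2 difference of 0.70 ± 0.10. A second HLA-C probe, at 39 to 44.5 on the 4 arrays, was detected on none.

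HLA-B, the other classical heavy chain, read 4862.1 and 5266.4 with scrambled RNA and 6530.6 and 5769.4 with the decoy. The decoy arrays were above, by a log2 difference of 0.19 ± 0.11 that moved to 0.07 without scrambled RNA replicate 1 and to 0.32 without scrambled RNA replicate 2. Class I genes are close in sequence and the probe sequences were not used here, so signal shared between them cannot be told apart from each gene's own.

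B2M, the common light chain, was read by 2 bright probes that went apart. Probe ILMN_1725427 read 11951.8 and 10351.4 with scrambled RNA and 9934.8 and 8325 with the decoy, a log2 difference of -0.33 ± 0.09. Probe ILMN_2148459 read 12563.1 and 11386.9 against 13503.4 and 12008, a log2 difference of 0.06 ± 0.09. So the first probe was lower on both decoy arrays, while the raw signals of the second overlapped. The first probe lost 0.40 on the log2 scale relative to the second, its log2 signal less that of the second being -0.09 and -0.14 with scrambled RNA and -0.49 and -0.53 with the decoy. The brighter probe's difference turned negative under median scaling (-0.12) and under scaling to the 75th percentile (-0.09), and the mean of both probes was -0.13. The first probe's difference was -0.50 under median scaling.

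The peptide transporter and its loading partner showed small differences in both directions. TAP1 read 2004.4 and 1762 with scrambled RNA and 1922.7 and 1703.1 with the decoy, raw signals that overlapped, with a log2 difference of -0.21 ± 0.09. For TAP2 the raw signals were 818.6 and 753.8 against 1063.3 and 1000.9, both decoy arrays above, with a log2 difference of 0.17 ± 0.09. Both subunits of the transporter thus differed in sign, and each kept its sign under the 14 other settings. A second TAP2 probe, at 79.3 to 110.5, was detected on no array.

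TAPBP read 1861.7 and 1584.5 with scrambled RNA and 1869.9 and 1866 with the decoy. Its log2 difference was -0.03 ± 0.10, and it turned positive without sRSE decoy replicate 1, at 0.04, and without scrambled RNA replicate 1, at 0.01. The other 2 TAPBP probes, of other transcripts, were detected on no array.

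**Figure D1:**
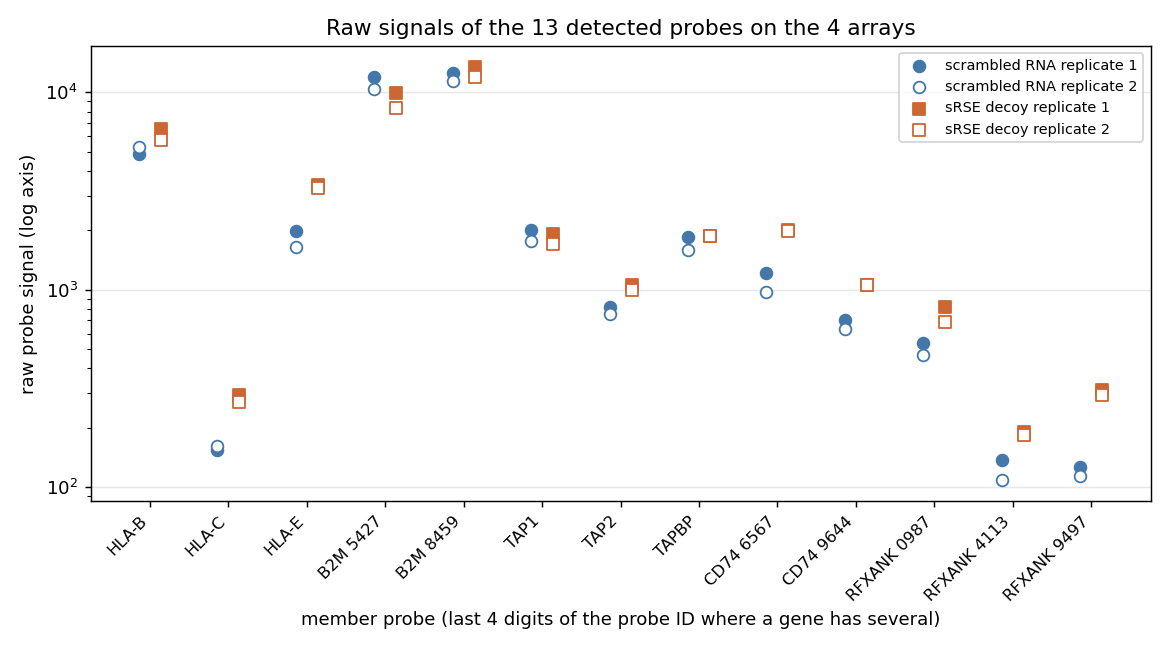
Raw signals (vertical log axis) of the 13 detected member probes on each of the 4 arrays, scrambled RNA as circles and sRSE decoy as squares, with filled symbols for replicate 1 and open ones for replicate 2. Probes differ in how strongly they read their transcript, so heights compare only within a probe. The decoy squares stand above both circles for HLA-B, HLA-C, HLA-E, TAP2, TAPBP, CD74 and RFXANK, and below them for B2M probe ILMN_1725427. These signals are not scaled, and the decoy arrays were brighter as a whole (75th percentile 207.9 and 192.6 against 166.05 and 156.6). The share of all probes that stand so is not given here, and after normalization the TAPBP groups overlapped.

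CD74 and RFXANK, the members tied to class II expression, were higher with the decoy on every detected probe. RFXANK probe ILMN_2399497 counted as detected only through the decoy arrays, so its direction followed from that and adds nothing here. RFXANK probe ILMN_1804113 was detected on only 1 scrambled array, so it too needed a decoy array to pass the filter. CD74 probe ILMN_1736567 read 1210.1 and 971.9 with scrambled RNA and 2012 and 1990.6 with the decoy, a log2 difference of 0.73 ± 0.10. Probe ILMN_2379644, linked to another CD74 transcript, read 704.7 and 633.4 against 1055.8 and 1054.7, a log2 difference of 0.45 ± 0.10. Neither probe's groups overlapped, and another CD74 probe, at 36.5 to 82, was detected on no array. CD74 is otherwise most abundant in antigen presenting cells. Of the 18 markers of such and other blood cells, 15 were detected on no array and 3 (CD14, CD68 and CSF1R) on all 4, and their part in the CD74 signal was not tested.

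RFXANK was read by 3 probes with unequal differences. The brightest, ILMN_1780987, read 539.5 and 468.1 with scrambled RNA and 822.1 and 689.7 with the decoy, a log2 difference of 0.36 ± 0.09. Probe ILMN_1804113, detected on 3 arrays, read 137.6 and 108.4 against 190.5 and 184, a log2 difference of 0.52 ± 0.15 that was 0.77 without scrambled RNA replicate 1 and 0.27 without scrambled RNA replicate 2. Both probes belong to the same transcript accession, and on both the decoy arrays lay above the scrambled arrays.

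The third RFXANK probe, ILMN_2399497, belongs to another RFXANK transcript, NM_134440. It read 127.1 and 114.3 with scrambled RNA, where it was not well above background (detection p 0.013 and 0.0169), and 311.1 and 293.8 with the decoy. On the background-corrected, normalized scale of the fit it was at least 2.52-fold higher with the decoy, with each scrambled array raised, where it lay lower, to the dimmest signal still above background. The fitted log2 difference was 1.44 ± 0.10. It depended on the background correction and scaling, from 0.97 with normexp without controls to 1.65 under scaling to the 75th percentile, so the bound holds for the fit's own scale only. Relative to the brightest probe, this probe gained 1.09 on the log2 scale. In the authors' deposited table the value of NM_134440 stood above 99.9% of 39747 accessions, and that of NM_003721, which takes in the other probes, above 95.8%. Those ranks are over detected and undetected transcripts alike, and only 13889 of the 47323 probes were detected. The ranks come from the same arrays. Which RFXANK transcripts each probe reads was not tested.

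**Figure D2:**
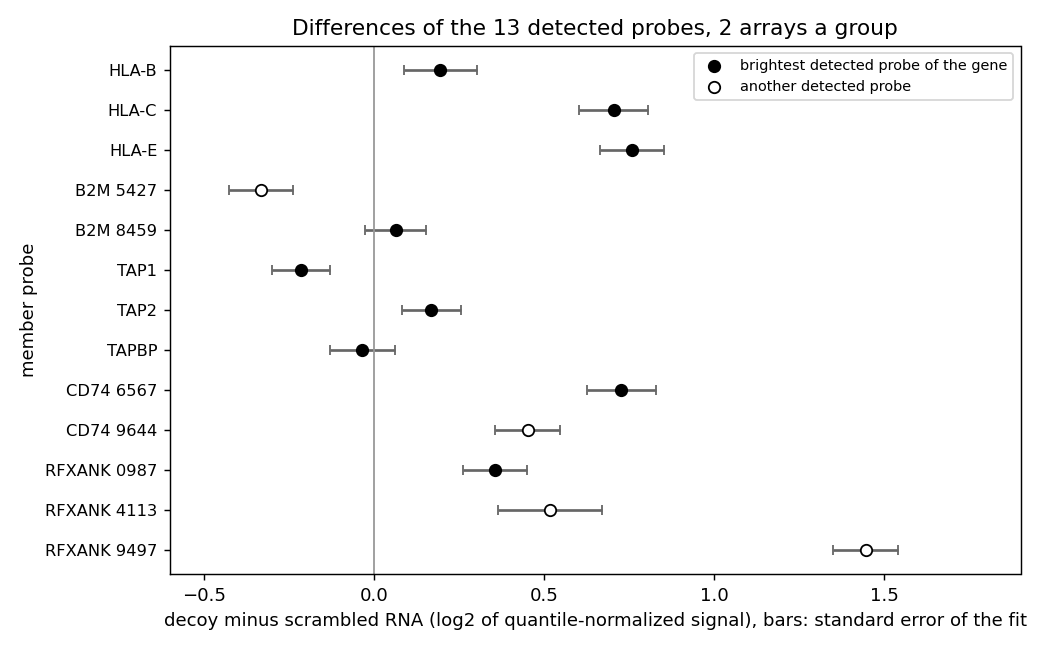
Differences of normalized log2 signal, decoy minus scrambled RNA, for the 13 detected member probes, with bars for the standard error of the fit over 2 arrays a group and filled points for the brightest probe of each gene. The points run from -0.33 for B2M probe ILMN_1725427 to 1.44 for RFXANK probe ILMN_2399497, and B2M and RFXANK have probes that lie well apart.

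By their brightest detected probe, 4 of the 9 genes (HLA-C, HLA-E, CD74 and RFXANK) passed the threshold as higher and 0 as lower, where 19.0% of all 8830 genes were called higher and 23.1% lower. By probe, 7 of 13 passed as higher and 1 as lower, where 21.5% and 21.9% of all detected probes did. The 7 include RFXANK probe ILMN_2399497, which counted as detected only through the decoy arrays. They also include RFXANK probe ILMN_1804113, which needed a decoy array to pass the filter. The higher count was 5 without the detection filter, with detection asked on all 4 arrays (11 probes tested), and without scrambled RNA replicate 2 or either decoy array. The lower count was 0 without the filter, without scrambled RNA replicate 1 and without sRSE decoy replicate 2, and 2 with normexp without controls and with the authors' normalized intensities. These counts follow from how the genes were chosen. The median log2 difference was 0.19 over the 9 genes and -0.04 over all genes. Probes of 1 gene could differ elsewhere on these arrays too: 1967 genes had more than 1 detected probe. In 1004 of them, B2M included, some probes were called and others not. In 170 of the 1967, probes were called in opposite directions.

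The genes whose 4 mean-centred log2 signals lay closest to those of the brightest RFXANK probe were SRGAP2, BAIAP2 and SNHG7, with root mean square distances of 0.0141, 0.0154 and 0.0165. Their log2 differences were 0.36, 0.39 and 0.36. The likeness was taken over 4 arrays in 2 groups, so genes with a like difference between the groups come out close.

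The genes around the members were taken from 5 lists that leave the members out. Each gene was measured by its brightest detected probe and called by limma at an adjusted p under 0.05 over all detected probes, and each list count can be read against the 19.0% and 23.1% of all genes called. Where a list gene is named below as called by its brightest probe, that probe kept its sign in every alternative setting that tested it. The settings that average a gene's probes or use accessions joined to 1 probe only were not part of this check. The call itself held in every such setting for 11 of the 22 genes called, among them TAPBPL, HLA-F, HLA-G, MICA, HLA-DRA, HLA-DRB3, IFI30, NFYA, IRF1 and SOCS3. Leaving out 1 array also ended the calls of TPP2 (scrambled RNA replicate 1 or sRSE decoy replicate 2), NFYC (sRSE decoy replicate 2), IFNGR2 (sRSE decoy replicate 1, adjusted p = 0.0544 by limma), JAK1 (scrambled RNA replicate 1 or either decoy array), CTSL and CD1E (scrambled RNA replicate 2 or either decoy array) and IRF2 (scrambled RNA replicate 2 or sRSE decoy replicate 1).

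Class I like molecules and stress ligands included the largest rises in the 5 lists. Of 9 measured, 4 rose, 1 fell and 4 were not called, with a median log2 difference of 0.20. HLA-F, a non-classical class I molecule, read 2963.4 and 2913.6 with scrambled RNA and 6461.9 and 6215.9 with the decoy, a rise of 1.04 ± 0.09 on the log2 scale (limma adjusted p = 0.000497). A dim HLA-F probe, ILMN_1762861, had a log2 difference of 0.42 ± 0.16 and was not called. HLA-G, a non-classical molecule best known from the placenta, read 871.3 and 648.7 against 1613.9 and 1689.2, a rise of 0.98 ± 0.13 (limma adjusted p = 0.00125).

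Ligands of the NKG2D receptor of NK cells were in the same list. MICA, not well above background with scrambled RNA at 107 and 92, read 175 and 150.3 with the decoy and was at least 1.09-fold higher (limma adjusted p = 0.00313). Its probe counted as detected only through the decoy arrays. ULBP2 rose by 0.27 ± 0.09 (limma adjusted p = 0.0405), a call that was lost whenever 1 array was left out. MICB, another ligand of that receptor, had a log2 difference of 0.08 ± 0.10 and was not called. CD1E, which takes part in lipid antigen processing, fell by 0.32 on the log2 scale after normalization (limma adjusted p = 0.049), although its raw signals of 238.1 and 253.4 were below the decoy's 260 and 256, and the call was lost under median scaling.

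Of 17 measured genes of class I processing, loading and surface, 2 rose, 1 fell and 14 were not called, with a median of 0.01. TPP2, a peptidase that trims peptides in the cytosol, rose by 0.40 ± 0.10 by its brightest probe (limma adjusted p = 0.0178), while its other probe, ILMN_2128358, had a log2 difference of -0.04 ± 0.10 and was not called. CALR, the chaperone calreticulin of the loading complex, rose by 0.26 ± 0.09 (limma adjusted p = 0.0467), a call lost when any 1 array was left out. TAPBPL, a peptide editor related to tapasin, read 151 and 149.6 with scrambled RNA and 137 and 126 with the decoy, where it was not well above background. These raw signals still hold the background. On the background-corrected, normalized scale of the fit TAPBPL was at least 1.28-fold lower (limma adjusted p = 0.000911). Its probe counted as detected only through the scrambled arrays.

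The immunoproteasome subunits PSMB8, PSMB9 and PSMB10 were not called by their brightest probes, at log2 differences of 0.23, 0.15 and -0.22. Of the other PSMB8 probes, ILMN_1767006 was called higher at 0.58 ± 0.11 (limma adjusted p = 0.00533) and ILMN_1747195 was not called at 0.05 ± 0.09.

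Of 11 measured genes of the class II list, 2 rose, 2 fell and 7 were not called, with a median of 0.09. HLA-DRA, the alpha chain of HLA-DR, read 437 and 334.5 with scrambled RNA and 733 and 693 with the decoy, a rise of 0.70 ± 0.12 (limma adjusted p = 0.00287). HLA-DRB3, one of its beta chains, read 448.8 and 465.7 against 400.5 and 307.6 and fell by 0.79 on the log2 scale (limma adjusted p = 0.00243). Another HLA-DRA probe, ILMN_1689655, had a log2 difference of 0.21 ± 0.10 and was not called, nor was HLA-DRB4, another beta chain, at 0.16 ± 0.14. HLA-DRB genes are close copies whose signals cannot be told apart here.

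IFI30, a lysosomal reductase that opens disulfide bonds of antigens, rose by 0.63 ± 0.10 (limma adjusted p = 0.00223). CTSL, the protease cathepsin L, fell by 0.28 on the log2 scale by its brightest probe (limma adjusted p = 0.0418), while another of its probes stood 0.95 ± 0.12 higher and the remaining one -0.47 ± 0.09. HLA-DMA and HLA-DMB, which exchange the invariant chain fragment for peptide, had log2 differences of 0.19 and -0.10 and were not called. HLA-DPA1, HLA-DPB1, HLA-DQB1 and HLA-DRB1 were detected on no array.

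Of 15 measured transcription regulators of MHC genes, 3 rose, 4 fell and 8 were not called, with a median of -0.16. NFYA, the sequence-reading subunit of the Y box factor NF-Y, read 219.4 and 200.3 with scrambled RNA and 400 and 368.2 with the decoy, a rise of 0.68 ± 0.09 (limma adjusted p = 0.00109). NFYC, another NF-Y subunit, rose by 0.60 ± 0.13 (limma adjusted p = 0.00852), and ATF1, a factor that binds CRE-like sites such as the X2 box, by 0.30 ± 0.09 (limma adjusted p = 0.026), a call lost whenever 1 array was left out. RFX5, which joins RFXANK in the RFX complex, read 1726.1 and 1678.2 against 1974.9 and 1891.9, a log2 difference of 0.02 ± 0.09 that was not called (limma adjusted p = 0.847). RFXAP, the remaining subunit, was detected on 1 array, and the co-activators CIITA and NLRC5 on none.

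The falls described from that list were in IRF1, IRF2 and the deacetylase HDAC2. IRF1, an interferon-induced activator of class I genes, read 969.5 and 848.6 with scrambled RNA and 549.9 and 493.2 with the decoy, and fell by 1.15 on the log2 scale (limma adjusted p = 0.000309). IRF2, a counterpart of IRF1, fell by 0.50 (limma adjusted p = 0.0149) and HDAC2 by 0.27 (limma adjusted p = 0.0467), both with raw signals that overlapped. The IRF2 call was lost under median scaling and under scaling to the 75th percentile, and the HDAC2 call whenever 1 array was left out.

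Of 7 measured genes of the interferon gamma receptor pathway, 2 rose, 1 fell and 4 were not called, with a median of 0.01. SOCS3, a feedback inhibitor of cytokine signalling, rose by 0.45 ± 0.09 by its brightest probe (limma adjusted p = 0.00751; a dim probe, at 0.20 ± 0.21, was not called), and the kinase JAK1 by 0.33 ± 0.10 (limma adjusted p = 0.0289). IFNGR2, a chain of the receptor, read 2396.7 and 2213.5 with scrambled RNA and 2011.7 and 1866.7 with the decoy and fell by 0.40 (limma adjusted p = 0.00863). The other chain, IFNGR1, had a log2 difference of 0.01 ± 0.09 and was not called.

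**Figure D3:**
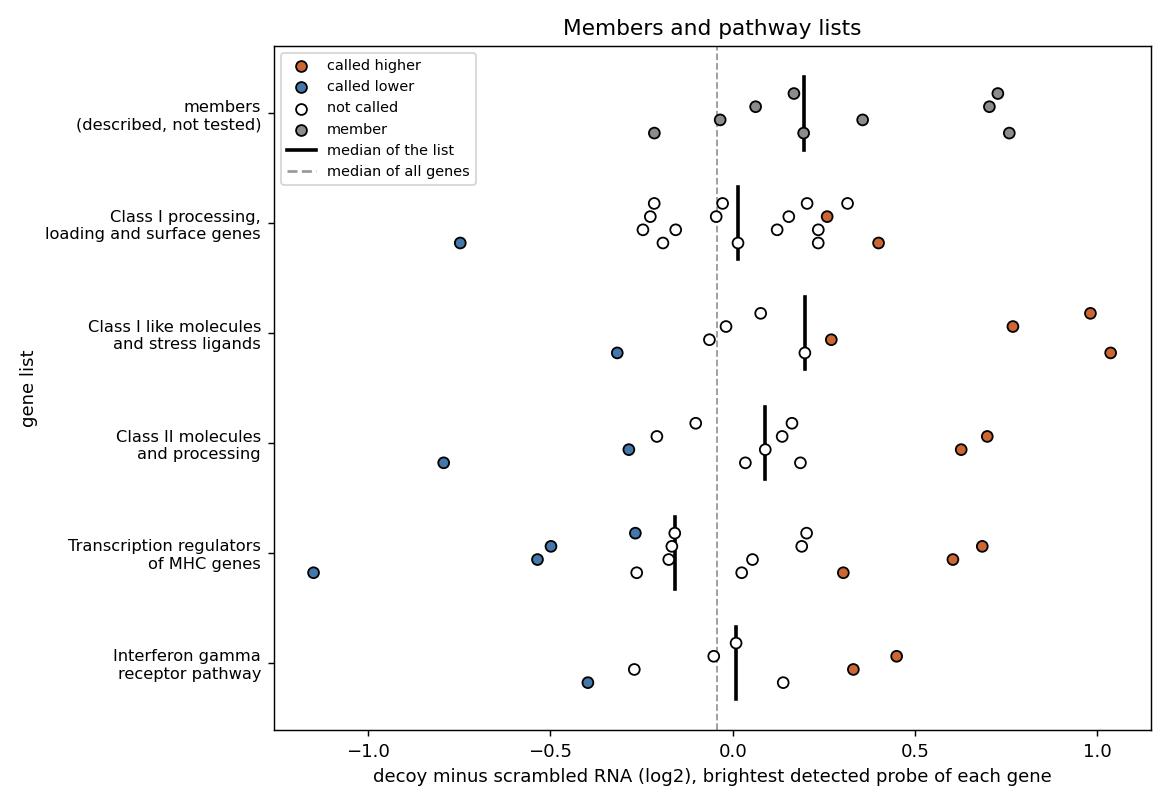
Differences of log2 signal, decoy minus scrambled RNA, by the brightest detected probe of each gene for the 9 members (grey, described without a test) and the 5 pathway lists (orange called higher, blue called lower, white not called), with a bar at each list's median and a dashed line at the median of all genes, -0.04. HLA-F and HLA-G lie farthest right at 1.04 and 0.98, and IRF1 farthest left at -1.15.

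**Figure D4:**
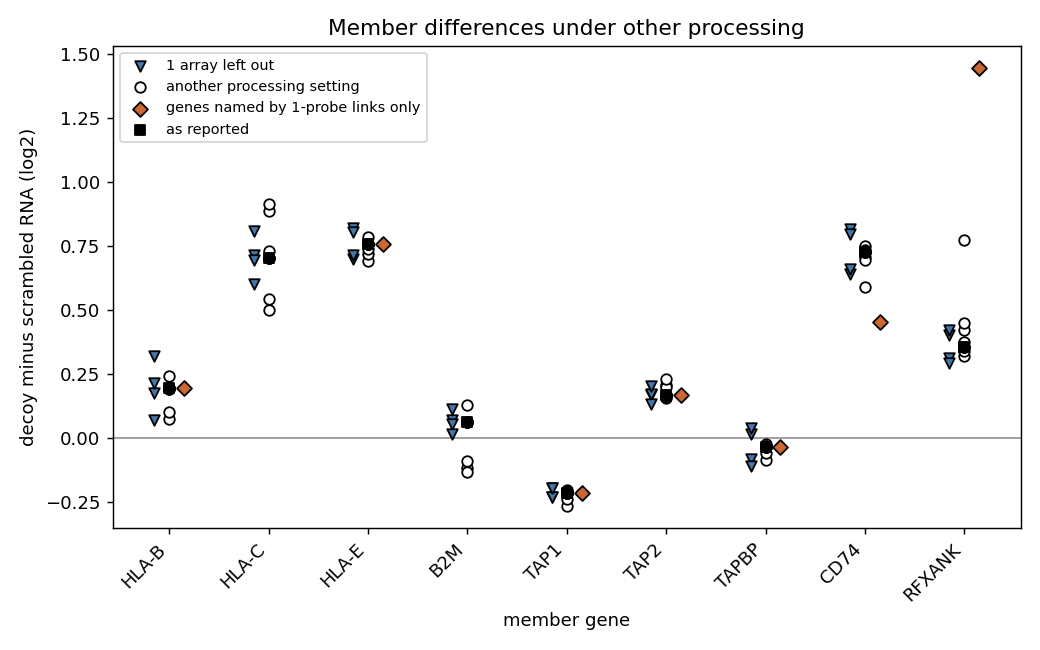
Log2 differences of the 9 member genes as reported (black squares), with 1 array left out (triangles), under other processing settings (circles) and with genes named only through accessions joined to 1 probe (diamonds). HLA-B, HLA-C, HLA-E, TAP2, CD74 and RFXANK stay above 0 throughout and TAP1 below 0, while B2M and TAPBP have values on both sides. The RFXANK diamond at 1.44 and the CD74 diamond at 0.45 are other probes of those genes.

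The plot by setting also shows the reach of the probe choice. With the mean over all detected probes in place of the brightest, the RFXANK difference was 0.77 and that of CD74 0.59. With accessions joined to 1 probe only, HLA-C and B2M had no measured probe. HLA-E ranged from 0.69 to 0.82 over all settings, HLA-C from 0.50 to 0.91, TAP1 from -0.27 to -0.20 and TAP2 from 0.13 to 0.23.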

How the data were processed

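Transcript signals were measured in 2 scrambled RNA and 2 sRSE decoy samples, grouped by the labels. The deposited raw values are intensities with a detection p-value beside each, per the file headers. For sRSE decoy replicate 1, the detection value of 3 probes was a copied signal and was replaced by that of probes of like signal. Normalized intensities of the authors (made with lumi according to the submitters' processing notes) and a table with 1 log10 ratio per accession were also deposited by the authors. The base of that ratio is not stated and was inferred from its values.

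No probe annotation was used here, so genes rest on a join by value. The deposited log10 ratio, between group means of inverse hyperbolic sine values, was recomputed from the authors' normalized intensities with 3 fitted constants and linked to an accession within 6e-10. Of 39747 accessions, 32434 were linked to 1 probe (0.351% by chance in 8 shifted tables), 5367 to 2 (0.27%), 597 to 3 and 75 to 4. The transform follows an earlier analysis of these data. Other forms were tried and gave matches near chance, and the join to several probes was added after the files were seen, with candidates limited to probes within 6 rows. Names come from RefSeq (GRCh38.p14).

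Raw intensities were background corrected with inferred negative controls (offset 16), quantile normalized and log2 transformed with the steps of neqc in limma 3.58.1 under R 4.3.3, while the deposited log10 values were only used to name probes and give percentiles. A probe was tested where its detection p was under 0.01 on 2 or more arrays. The comparison used lmFit and eBayes of limma with no covariate, Benjamini-Hochberg adjusted over 13889 probes, at a threshold of 0.05, and the fit was tested on simulated data. A gene was read by its detected probe of highest mean log2 signal. The number of arrays limits the precision.

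The members, the gene lists and the tests were chosen with earlier results of these data known. Named genes are every member, in each list the called genes with the 4 largest differences in each direction and any others that complete a count of 5 or fewer, list genes given as context, the 3 genes nearest RFXANK, and markers by list. The promoters printed, the letters of the patterns and GAPDH and ACTB were chosen after values were seen, as were list genes named that were not called. Alternatives were other scalings, another background correction, the authors' normalized intensities, other filters, the replicate block, each array left out, the mean over probes and, added after seeing the data, accessions joined to 1 probe only. Some list and marker genes are counted but not reported here by name.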

Additional observations from a re-analysis of the deposited data

How the results depend on the processing

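Calls over all detected probes numbered 6029, and 3498 without the detection filter, where 47323 probes were tested. With 1 array left out, the lone array being assumed to vary like the other group, they numbered 3728 to 5103, lowest without either decoy array. In the class I processing list, 3 genes were called, against 5 under scaling to the 75th percentile, 7 with normexp without controls, 6 with the authors' normalized intensities, 1 without the filter and 1 to 2 with 1 array left out. The class I like list had 5, against 3 without the filter and 3 to 4 with 1 array left out. The regulators had 7, against 3 without the filter, 4 with accessions joined to 1 probe only and 4 to 5 with 1 array left out. The class II list had 4 and 3 to 4 with 1 array left out, and the interferon gamma receptor pathway 3 and 1 to 3. The causes of these changes in count were not tested.

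After quantile normalization, deviations of the replicate 1 arrays from their group means correlated at -0.00813 over the tested probes. That step takes out any brightness shared by a replicate, so the value cannot tell whether replicate numbers pair the samples. The raw 75th percentile was higher in replicate 1 with scrambled RNA (166.05 against 156.6) and with the decoy (207.9 against 192.6). With replicate number as a block, 5902 probes were called. The blocked fit gave 4 calls in the class I like list, 3 in the class II list and 6 among the regulators. Median scaling here centred each array on its median over all 47323 probes and moved the median of tested probes to 0.05.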
